A study of Mus musculus with 14 samples.

Results

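The 50 genes described here encode the machinery that copies DNA and the enzymes that supply its building blocks. They were chosen by symbol from 24537 gene rows, and all 50 had a row in both deposited tables. By role they fall into origin licensing (11 genes), helicase activation (6), polymerases and primase (9), the sliding clamp and its loader (6), lagging strand synthesis and single-strand binding (5), nucleotide supply and uracil removal (6), duplication of chromatin (4), and regulators of entry into S phase (3). RNA was sequenced from sorted mouse skin cells after hair depilation, which starts a new hair cycle. The main readout is hair follicle stem cells (HFSC), sorted as CD34-positive cells with high integrin alpha 6, 4 days after depilation, with 3 libraries labelled GR WT and 3 labelled GR KO. Regulatory T (Treg) cells from skin, sorted 24 h after depilation, gave 3 GR WT and 5 GR KO libraries.

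GR WT cells came from wild-type mice, and GR KO cells from Foxp3YFP-Cre GRfl/fl mice. In these, Cre is made by cells that express Foxp3, the Treg lineage factor, and removes a floxed part of the glucocorticoid receptor gene. In the HFSC libraries, KO is therefore the genotype of the mouse, in cells that are not the target of the deletion. The labels do not say whether the wild-type mice carried the Cre allele, and give no strain background, sex or age. Whether the libraries of a group came from different mice is not stated, and the p-values reflect only how far these libraries spread, part of which may be technical.

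DNA replication begins in G1, when the origin recognition complex, Cdc6 and Cdt1 load the MCM2-7 ring onto DNA as an inactive helicase. In S phase, Cdc45 and the GINS complex join the ring and switch it on, primase and polymerase alpha lay down primers, and polymerases delta and epsilon extend them on the PCNA clamp. Many of these genes are transcribed in a wave before S phase under E2F factors, and their transcripts are widely read as a sign of dividing cells. Bulge HFSC are mostly quiescent and divide early in a new hair cycle.

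The promoters of these genes were searched for the core letters of the E2F motif in the 250 bases before each start. The letters were TTTCCCGC, TTTCGCGC, TTTGCCGC or TTTGGCGC, on both strands, with overlapping matches joined. A RefSeq promoter (build GRCm38.p6, the sequence of mm10) whose start lay within 100 bases of the table's was found for 37 of the 50 genes. It was not matched for Ccne2, Cdc45, Cdc6, E2f1, Gins1, Gins2, Gins4, Gmnn, Mcm4, Pole, Prim2, Rfc2 and Ung. Of the 37, 8 (21.6%) held a match, beside 10 of 49 (20.4%) of further genes of the same pathways, 1 of 17 (5.88%) of mitosis genes and 312 of 8826 (3.535%) of all genes tested in HFSC. By role the counts were small: 4 of 8 for licensing, 1 of 2 for helicase activation, 1 of 7 for polymerases and primase, 1 of 5 for the clamp and its loader, 1 of 4 for chromatin duplication, and 0 of 5, 0 of 5 and 0 of 1 for lagging strand, nucleotide and S phase entry genes. The 4 licensing genes and Uhrf1, the gene of this set with a match and the lowest HFSC difference, are shown because they let the shared letters be compared. Each is given 5′ to 3′ on the strand of its gene, with the matched letters in capitals and 16 bases on either side.
Mcm5, chr8:75109340-75109383, plus strand, match 153 bases before the start: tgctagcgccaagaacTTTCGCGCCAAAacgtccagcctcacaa
Mcm6, chr1:128359788-128359831, minus strand, 110 bases before: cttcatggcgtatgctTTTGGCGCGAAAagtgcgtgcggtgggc
Mcm6, chr1:128359729-128359768, minus strand, 47 bases before: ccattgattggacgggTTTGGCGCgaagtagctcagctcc
Mcm7, chr5:138172025-138172064, minus strand, 165 bases before: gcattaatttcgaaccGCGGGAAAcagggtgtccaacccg
Orc1, chr4:108579411-108579450, plus strand, 27 bases before: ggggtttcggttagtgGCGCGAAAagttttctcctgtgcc
Uhrf1, chr17:56304112-56304151, plus strand, 185 bases before: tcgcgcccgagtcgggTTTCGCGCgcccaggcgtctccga
In Mcm5 and in the farther of the Mcm6 windows, matches on opposite strands overlap. Gins3, Rfc3 and Pola1 also held a match. The 8 genes with a match had HFSC differences from -0.79 to -0.39 (median -0.63), and the 29 without one from -0.81 to 0.13 (median -0.47), so the ranges overlapped. The motif was chosen with the values of these genes known, and a match is a description of letters, not of binding. Many of the genes are under E2F factors, so a share above that of all genes followed from the choice of list. It does not bear on the KO difference: the further pathway genes held 20.4% with a median difference of -0.28.

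The HFSC libraries held 4.50 to 7.99 M tags and the Treg libraries 9.17 to 14.5 M, as recovered from the deposited TPM (an abundance scaled by transcript length and library total). A count of 3 tags on a 2000-base transcript equals 0.308 to 0.515 TPM in HFSC libraries and 0.138 to 0.207 TPM in Treg libraries, a floor for counting error only. HFSC WT replicate 1 was the shallowest library and stood apart on the first principal component of all tested genes (59.8, the other 5 from -17.7 to -4.02), so main values are also given without it. The 10 HFSC markers summed to 18370 to 23353 TPM in WT and 14074 to 17207 in KO, all present, and the 8 Treg markers to 7453 to 10746 TPM in the Treg table. Nr3c1, the receptor gene, was at 211 TPM in Treg WT and 129.5 in Treg KO (limma adjusted p = 0.0722, with overlapping groups), and at 41.6 and 43.6 TPM in HFSC WT and KO, where the genotype of a library cannot be checked by it.

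In HFSC from GR KO mice, 48 of the 50 genes were lower than in GR WT (all genes 52.8%) and 2 were higher (47.2%). Two-sided limma tests over 12493 genes on log2(TPM + 1) called 2 of the 50, both lower: Ung, which encodes the uracil-DNA glycosylase that cuts uracil out of DNA, and Gins2, a subunit of the GINS complex. Over all genes tested, 4 were called lower (0.032%) and 18 higher (0.144%), while voom on the recovered tags called 243 lower (1.95%) and 240 higher. By voom, 15 of the 50 genes were called, all lower. At an adjusted p below 0.1, 7 genes were lower (all genes 0.568%), namely Ung, Gins2, Mcm7, Uhrf1, Chaf1a, Lig1 and Pold2, and none was higher (1.36%). At an unadjusted p below 0.05 there were 32 of 50 lower (all genes 8.8%), and none higher (7.8%), and the count in either direction was 17 without WT replicate 3 and 16 without KO replicate 3. In 25 genes every KO library lay below every WT library (all genes 12.8%), and in none did every KO library lie above (10.7%).

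The median difference of the 50 genes was -0.47 on the log2 scale, beside -0.02 for all genes tested, and -0.52 without WT replicate 1. Their summed level was 2365, 2455 and 2936 TPM in WT replicates 1, 2 and 3 and 2075, 1741 and 1592 TPM in KO replicates 1, 2 and 3, so that the groups did not overlap. In bulk RNA of sorted cells, fewer cells of a type (here, cells in S phase) and less RNA per cell cannot be told apart. Most members shared the same high and low libraries: WT replicate 3 was the highest of the 6 libraries for 40 genes, KO replicate 3 the lowest for 36, and KO replicate 1 the highest KO library for 41. Relative to the WT mean, the median member stood at -0.14, -0.07 and 0.23 in the WT libraries and at -0.29, -0.55 and -0.69 in the KO libraries. The members are therefore not independent readings, and their number adds no replicates to the 3 against 3.

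**Figure D1:**
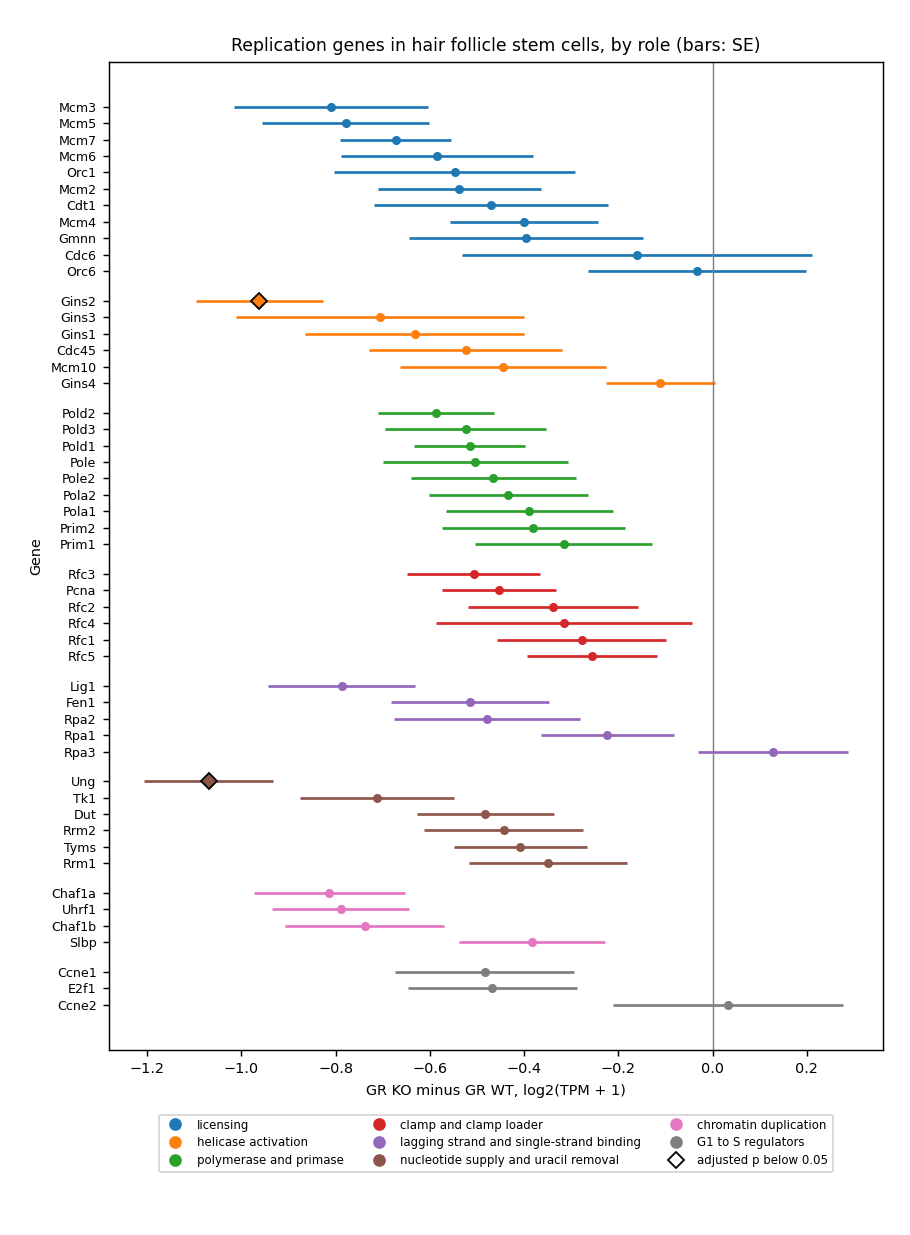
Difference between GR KO and GR WT HFSC (x axis, log2(TPM + 1), limma estimate with its SE as a bar) for each of the 50 genes, in blocks by role. Diamonds mark Ung and Gins2, which passed an adjusted p of 0.05; Rpa3 and Ccne2 are the only points right of 0.

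**Figure D2:**
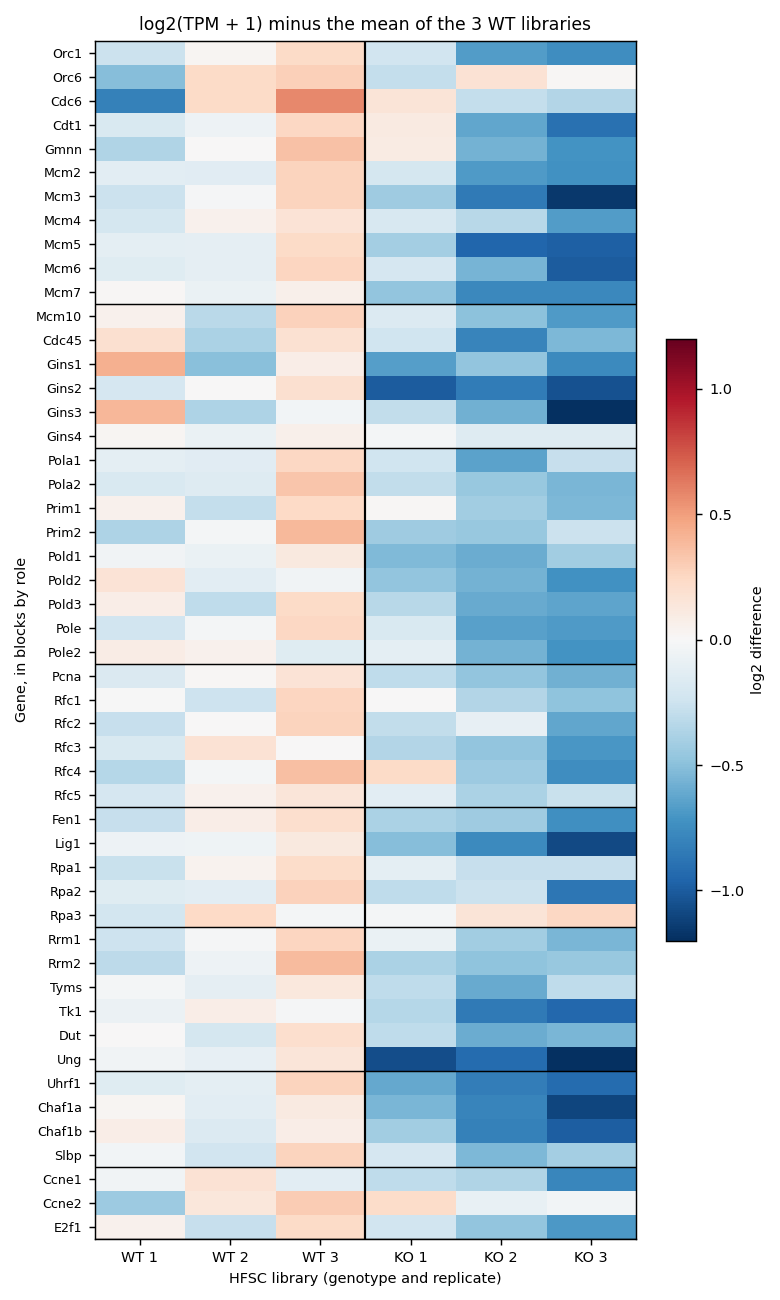
Each cell is log2(TPM + 1) of a gene (rows, in blocks by role) in an HFSC library (columns), minus the mean of the 3 WT libraries. Blue is lower and red higher; the 3 KO columns are mostly blue, and their median members stood at -0.29, -0.55 and -0.69.

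Library values below are in the order of replicates 1, 2 and 3. The licensing genes, which load the helicase in G1, had a median difference of -0.54, and all 11 were lower, none past the threshold. Mcm7, an MCM2-7 ring subunit, stood at 105, 98.3 and 108 TPM in WT and 74.5, 60.3 and 60.1 TPM in KO, with a difference of -0.67 (SE 0.12, limma adjusted p = 0.0689). Mcm5, another ring subunit, was at 94.3, 94.6 and 119.9 TPM in WT and 77.02, 52.6 and 51.2 TPM in KO (-0.78, SE 0.18, adjusted p = 0.105). Mcm3, also of the ring, was at 62.8, 74.7 and 91.1 TPM in WT and 55.9, 41.5 and 33.1 TPM in KO (-0.81, SE 0.21, adjusted p = 0.123). In these 3 genes every KO library was below every WT library, with KO replicate 1 the nearest to WT. Mcm2 and Mcm6 also had groups without overlap (-0.54 and -0.58), whereas for Mcm4 (-0.40) KO replicate 1 reached into the WT range. For the factors that place the ring on DNA the groups overlapped: Orc1 differed by -0.55, the loader Cdt1 by -0.47, geminin (Gmnn), the inhibitor of Cdt1, by -0.40, Cdc6 by -0.16 and Orc6 by -0.03. Cdc6 and Orc1 were also the least abundant of the 50 in WT, at 5.34 ± 2.75 and 5.46 ± 1.08 TPM (SD, n = 3), and Cdc6 ranged from 2.36 to 7.77 TPM within WT alone.

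Helicase activation had a median difference of -0.58, with 6 of 6 genes lower and 1 called. Gins2 (NM_178856, chr8:120581266-120589075, minus strand, mm10) was at 52.3, 60.4 and 68.99 TPM in WT and 29.6, 33.3 and 28.6 TPM in KO. Its highest KO library was well under its lowest WT library, and the KO mean was 50.3% of the WT mean, from 239 tags per library in WT and 145 in KO. The gene fell by 0.96 (95% interval -1.27 to -0.65, adjusted p = 0.0494). Gins1, a further GINS subunit, was at 31.9, 16.3 and 24.8 TPM in WT and 14.5, 16.6 and 13.4 TPM in KO (-0.63, adjusted p = 0.236), and Cdc45, the partner of GINS on the ring, at 41.9, 27.8 and 41.6 TPM and 30.8, 20.6 and 24.8 TPM (-0.52, adjusted p = 0.258). For both, WT replicate 2 was low enough to overlap with KO. Gins3 differed by -0.70 (adjusted p = 0.298) and Mcm10, which helps open the double helix, by -0.44. Gins4 was at 34.2, 31.9 and 35.3 TPM in WT and 33.2, 30.2 and 30.3 TPM in KO (-0.11, 95% interval -0.37 to 0.15), and its groups overlapped.

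The GINS subunits and the MCM2-7 subunits each form one complex, so each transcript can also be given as a share of its complex. Gins2 made up 40.1 to 52.4% of the summed GINS TPM in WT libraries and 35.1 to 38.8% in KO libraries, and Gins4 25.6 to 27.7% in WT and 35.2 to 40.2% in KO. The spread of the Gins2 share within WT was wider than its gap between the groups, and the shares of Gins1 and Gins3 overlapped. Within MCM2-7, Mcm5 made up 17.98 to 18.8% in WT and 15.3 to 17.4% in KO. These shares were computed after the values were seen and carry no test, and since shares of a complex add up to a fixed total, a lower share of one subunit raises those of the others. In Treg cells the shares of Gins2, Gins4, Mcm4 and Mcm5 overlapped between the groups.

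**Figure D3:**
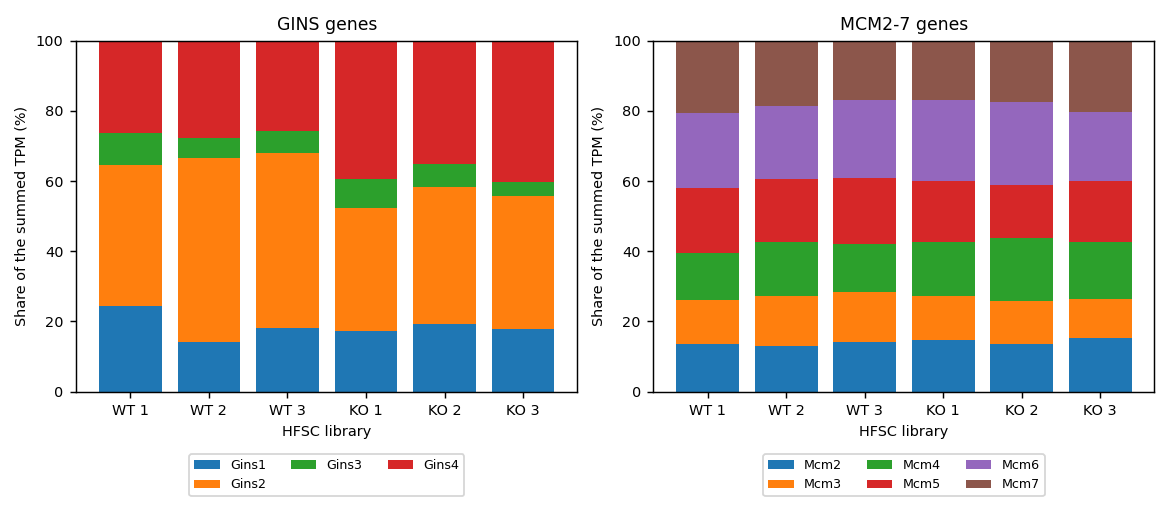
Share of each subunit (y axis, percent of the summed TPM) in the GINS genes (left) and the MCM2-7 genes (right) in each HFSC library. The Gins2 band is narrower in the 3 KO bars (35.1 to 38.8%) than in the 3 WT bars (40.1 to 52.4%), and the Gins4 band wider.

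Of the polymerase and primase genes, 9 of 9 were lower and none was called, with a median difference of -0.47. The subunits of polymerase delta, the lagging strand polymerase, had the smallest p values of the role. Pold2, a small subunit, was at 92.04, 74.9 and 79.6 TPM in WT and 58.8, 55.03 and 49.2 TPM in KO (-0.59, SE 0.12, adjusted p = 0.0823). Pold1, the catalytic subunit, was at 45.5, 44.1 and 50.96 TPM in WT and 31.98, 30.6 and 34.8 TPM in KO (-0.52, SE 0.12, adjusted p = 0.105). Pold3, an accessory subunit, was at 34.6, 26.3 and 38.7 TPM in WT and 25.7, 21.2 and 20.8 TPM in KO (-0.52, SE 0.17, adjusted p = 0.19). No KO library of these 3 genes reached the lowest WT library. The other 6 lay close together: the leading strand polymerase genes Pole and Pole2 at -0.50 and -0.47, the polymerase alpha genes Pola1 and Pola2 at -0.39 and -0.43, and the primase genes Prim1 and Prim2 at -0.32 and -0.38, with adjusted p values from 0.245 to 0.441. Only Pola1 and Pola2 of these 6 had groups without overlap.

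The clamp and clamp loader had the smallest median of the 8 roles, -0.33, with 6 of 6 genes lower and none called. Pcna, the ring that holds the polymerases on DNA and the most abundant of the 50 transcripts in WT, was at 194, 222 and 245 TPM in WT and 178, 157 and 147 TPM in KO (-0.45, SE 0.12, adjusted p = 0.135). Rfc3, a subunit of the loader that opens the clamp, was at 46.8, 60.1 and 53.2 TPM in WT and 41.3, 38.03 and 32.4 TPM in KO (-0.51, adjusted p = 0.146). Rfc2, another loader subunit, was at 49.7, 60.6 and 73.1 TPM in WT and 49.00, 56.4 and 38.97 TPM in KO (-0.34, adjusted p = 0.39). The groups were separate for Pcna and Rfc3 but overlapped for Rfc2, in which KO replicate 2 exceeded WT replicate 1. Rfc1, Rfc4 and Rfc5 differed by -0.28, -0.32 and -0.26 and overlapped too, and KO replicate 1 of Rfc4 (34.98 TPM) was above WT replicates 1 and 2.

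Lagging strand and single-strand binding genes had a median of -0.48, with 4 of 5 lower and none called. Lig1, the ligase that seals Okazaki fragments, was at 64.9, 65.6 and 73.8 TPM in WT and 47.4, 39.6 and 31.5 TPM in KO (-0.79, SE 0.16, adjusted p = 0.0754). Fen1, the nuclease that trims their flaps, was at 30.7, 39.8 and 43.2 TPM in WT and 28.6, 27.6 and 22.1 TPM in KO (-0.52, SE 0.17, adjusted p = 0.188). Rpa2, a subunit of the single-strand binding protein RPA, was at 37.6, 38.2 and 50.9 TPM in WT and 33.6, 34.8 and 22.4 TPM in KO (-0.48, SE 0.20, adjusted p = 0.278). All 3 had groups without overlap, Rpa2 by a wider margin in KO replicate 3 than in the other KO libraries. The other RPA subunit genes were nearer to WT, with Rpa1 at -0.22 and Rpa3 at 0.13 (95% interval -0.24 to 0.49), and both overlapped.

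Nucleotide supply and uracil removal had a median of -0.46, with 6 of 6 genes lower and 1 called. Ung (NM_011677, chr5:114131156-114139321, plus strand, mm10) was at 37.8, 36.4 and 43.2 TPM in WT and 18.1, 20.1 and 16.2 TPM in KO. Each of the 3 KO libraries was far below the lowest WT library, and the KO mean was 46.4% of the WT mean, from 281 tags per library in WT and 159 in KO. The gene fell by 1.07 (95% interval -1.38 to -0.76, adjusted p = 0.0413). Both calls were close to the threshold: without any 1 library, the adjusted p was 0.0633 to 0.155 for Ung and 0.0594 to 0.183 for Gins2, and without WT replicate 1 the differences were -1.09 and -1.06.

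Tk1, the thymidine salvage kinase, was at 80.6, 89.3 and 83.9 TPM in WT and 66.6, 46.4 and 43.5 TPM in KO (-0.71, SE 0.16, adjusted p = 0.105). Dut, the dUTPase that keeps uracil out of DNA by hydrolysing dUTP, was at 47.9, 41.3 and 55.2 TPM in WT and 38.5, 31.4 and 32.4 TPM in KO (-0.48, SE 0.15, adjusted p = 0.162). Neither gene had a KO library within the WT range. Of the summed TPM of Dut and Ung, Ung made up 43.9 to 46.9% in WT and 31.996 to 39.1% in KO, a share computed after the values were seen. The ribonucleotide reductase genes Rrm1 and Rrm2, whose products make deoxyribonucleotides, differed by -0.35 and -0.44, and the groups of Rrm2 alone were separate. Tyms, which encodes thymidylate synthase and is represented in the table by a non-coding transcript of the gene (NR_033402), differed by -0.41, with separate groups.

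The 4 chromatin duplication genes had the median farthest from 0 of the roles, -0.76, with 4 of 4 lower and none called. Uhrf1, which brings DNA methylation to newly copied strands, was at 93.6, 95.5 and 125 TPM in WT and 67.6, 57.8 and 54.4 TPM in KO (-0.79, SE 0.15, adjusted p = 0.0689). Chaf1a, the large subunit of the histone chaperone CAF-1, was at 47.4, 42.5 and 50.2 TPM in WT and 31.5, 26.6 and 21.2 TPM in KO (-0.81, SE 0.16, adjusted p = 0.0751). Its partner Chaf1b was at 43.1, 36.2 and 42.99 TPM in WT and 30.2, 22.7 and 19.99 TPM in KO (-0.74, SE 0.17, adjusted p = 0.105). The groups were separate in all 3, and the CAF-1 genes kept about the same proportion to each other, with Chaf1a at 52.4 to 54.0% of their sum in WT and 51.1 to 53.9% in KO. Slbp, which binds the stem-loop of histone mRNAs, differed by -0.38 and overlapped.

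Among the regulators of entry into S phase, 2 of 3 were lower and none was called. E2f1, an activating E2F factor, was at 30.9, 24.4 and 35.1 TPM in WT and 25.3, 21.1 and 18.1 TPM in KO (-0.47, SE 0.18, adjusted p = 0.254), and KO replicate 1 lay above WT replicate 2. Ccne1, a cyclin E gene, was at 12.9, 15.2 and 12.1 TPM in WT and 10.6, 10.2 and 7.35 TPM in KO, without overlap (-0.48, SE 0.19, adjusted p = 0.259). The other cyclin E gene, Ccne2, was at 4.67, 7.42 and 8.498 TPM in WT and 7.96, 6.204 and 6.52 TPM in KO (0.03, 95% interval -0.53 to 0.59). Its WT replicate 1 was lower than all 3 KO libraries, and without that library the difference was -0.19.

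**Figure D4:**
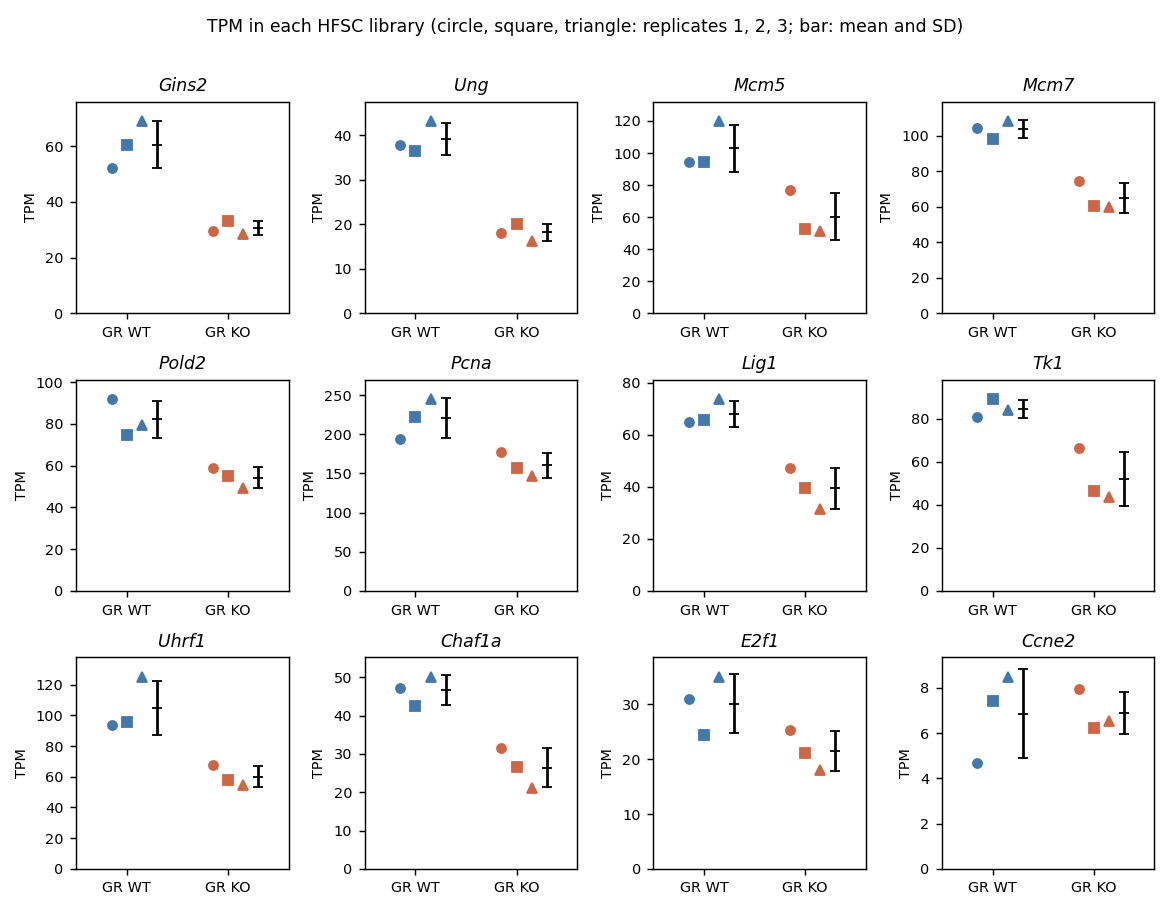
TPM (y axis, linear from 0) of 12 genes in each HFSC library, with circles, squares and triangles for replicates 1, 2 and 3 and a bar for the mean and SD. In the panels from Gins2 to Chaf1a all KO points lie below all WT points, and in those of E2f1 and Ccne2 they overlap.

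By median, the 4 parts of the machinery thus ranged from -0.54 for licensing over -0.47 for polymerases and -0.46 for nucleotide enzymes to -0.33 for the clamp and its loader. The ranges of single genes overlapped between these roles (-0.81 to -0.03, -0.59 to -0.32, -1.07 to -0.35 and -0.51 to -0.26), and no difference between roles was tested. The summed TPM of each of the 8 roles was lower in every KO library than in every WT library. For the clamp and its loader the margin was narrow, 376 TPM in KO replicate 1 and 385 TPM in WT replicate 1.

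Of 66 further genes of the same pathways (other origin, fork, nucleotide, chromatin and G1 to S genes), 57 were lower and 9 higher in HFSC from GR KO mice, with a median of -0.28. None was called (all genes lower 0.032%), 17 had an unadjusted p below 0.05 and were lower (8.8%), and 19 had all KO libraries below all WT libraries (12.8%). Tipin, a fork protection gene, had the smallest adjusted p, 0.0798, at 42.1, 38.0 and 44.0 TPM in WT and 29.3, 26.4 and 23.95 TPM in KO (-0.62). Rnaseh2c, a subunit of the nuclease that removes RNA from DNA, differed by -0.71, Mtbp, an origin firing gene, by -0.63, the repressor E2f8 by -0.62, and Umps, of pyrimidine synthesis, by -0.59, all without overlap. Dnmt1, the maintenance DNA methyltransferase gene that acts with Uhrf1, differed by -0.49, Dbf4, which activates the kinase that fires origins, by -0.46, and the folate enzyme gene Mthfd1 by -0.46. The 20 mitosis genes, which act after S phase, were all lower too, with a median of -0.44 and none called. Of these 20, 11 had an unadjusted p below 0.05 (all genes 8.8%) and 7 had groups without overlap (12.8%). The most abundant of them, Top2a and Mki67, differed by -0.45 and -0.40, with overlapping groups. Of 7 CDK inhibitor genes, which hold back the cell cycle, 5 were tested, with a median of -0.08. Of the tested genes 3 were lower and 2 higher, and 1 of the higher genes was called (all genes 0.144%). Cdkn2c and Cdkn2d, named after their values were seen, were lower at an unadjusted p below 0.05 (all genes 8.8%) and without overlap (12.8%). Cdkn1b differed by -0.08 (limma adjusted p = 0.754). The called gene, Cdkn1a, an inhibitor of cyclin-dependent kinases and of PCNA, rose from 89.0 ± 6.04 to 153 ± 10.4 TPM (SD, n = 3 each, 0.77, limma adjusted p = 0.0459), a call lost without any 1 library (0.0633 to 0.206).

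Marker genes of other cells and of the sorted cells themselves also differed between the HFSC groups. The 10 sebocyte markers were all higher in KO, 2 of them called (all genes 0.144%) and 9 without overlap (10.7%). They summed to 3918 to 5658 TPM in WT and 8375 to 10470 TPM in KO, with none at 0 in either group. The 8 keratinocyte markers summed to 23691 to 28527 TPM in WT and 18016 to 21358 in KO. Of them, 6 were lower and 2 higher, with 2 below WT without overlap (all genes 12.8%). The 8 hair germ and matrix markers summed to 125 to 131 and 88.7 to 98.4 TPM. Of the 6 tested, 5 were lower and 1 higher, with 1 below WT without overlap (all genes 12.8%). The HFSC markers, given above, were also lower in sum, with 7 lower, 3 higher and 3 below WT without overlap (12.8%). None of the keratinocyte, hair germ and HFSC markers was called. Their sums follow the most abundant genes, such as Cdh3 (96.9 TPM in WT) for hair germ. Krt5, Krt14 and Krt15 count in both the keratinocyte and the HFSC sum. The part of these marker differences in the values of the replication genes was not tested. Macrophage markers summed to at most 13.2 TPM, fibroblast markers to 15.4 and endothelial markers to 1.28 in any HFSC library.

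In Treg cells, 48 of the 50 genes reached the mean of 1 TPM needed for testing, 35 of them higher in GR KO (all genes 44.2%) and 13 lower (55.8%). None was called (over 11579 genes, 1.51% were called, 1.31% lower and 0.199% higher), and none had an adjusted p below 0.1 (1.87% lower and 0.492% higher). At an unadjusted p below 0.05, 1 was lower (all genes 8.93%) and 3 were higher (5.15%), and voom called none of the 48 (1.84% lower). The median difference was 0.12, beside -0.04 for all genes tested, and the 50 genes summed to between 866 and 899 TPM in WT libraries and 923 and 991 TPM in KO libraries, without overlap. Cdc6 and Mcm10 were below the filter, at 0.581 and 0.390 TPM in WT and 1.05 and 0.748 TPM in KO. Since the tables were made separately and share no sample, each comparison stands on its own, and the difference between HFSC and Treg cells was not tested.

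Ung and Gins2, which fell in HFSC, were expressed at lower levels in Treg cells. Gins2 was at 9.22, 3.09 and 8.77 TPM in WT and 3.89, 4.45, 7.07, 7.14 and 6.96 TPM in KO replicates 1 to 5, with overlapping groups (-0.14, SE 0.32, adjusted p = 0.891). Ung was at 1.16, 1.34 and 1.82 TPM in WT and 1.601, 3.32, 1.92, 1.96 and 1.55 TPM in KO (0.31, SE 0.27, adjusted p = 0.647). Its groups overlapped, with KO replicate 2 above the rest. Mcm5 was at 9.42, 11.7 and 13.9 TPM in WT and 15.6, 11.9, 15.8, 9.44 and 15.1 TPM in KO (0.19, adjusted p = 0.72), and overlapped over nearly its whole range. The intervals of the Gins2 and Ung differences in Treg cells, -0.84 to 0.57 and -0.28 to 0.90, are wide at these levels.

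Of the genes with the smallest p in each role in Treg cells, geminin (Gmnn) was at 22.2, 18.8 and 12.9 TPM in WT and 23.1, 27.5, 26.1, 25.1 and 22.1 TPM in KO (0.47, adjusted p = 0.243). Pole2 was at 8.23, 6.54 and 5.92 TPM in WT and 5.95, 2.66, 4.42, 4.67 and 5.004 TPM in KO (-0.53, adjusted p = 0.34). Rpa3, with the smallest p of the 48, was at 11.3, 24.6 and 11.6 TPM in WT and 28.5, 22.4, 24.3, 27.1 and 28.5 TPM in KO (0.77, SE 0.22, adjusted p = 0.153). WT replicate 2 of Rpa3 lay within the KO range, so the groups overlapped, and without that library the adjusted p was 0.00903. Gins4 differed by -0.19, Pcna by 0.14, Chaf1b by 0.24 and E2f1 by 0.17, with adjusted p values from 0.519 to 0.814. Every KO library was above every WT library for Fen1 (0.26) and Rpa1 (0.29), 2 of 48 genes (all genes 3.42%), and in no gene was every KO library below (5.1%).

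The Treg groups also differed in transcripts of other skin cells. The 8 keratinocyte markers were all called lower in GR KO (all genes 1.31%) and summed to 379 to 668 TPM in WT and 16.001 to 105 TPM in KO. The 8 macrophage and monocyte markers, with 5 called lower, summed to 191 to 315 TPM in WT and 53.2 to 138 TPM in KO. Of these lists none had a gene at 0 in all libraries of a group. The sums of HFSC, sebocyte, suprabasal, fibroblast and neutrophil markers were likewise lower in every KO library, and their part in the Treg values was not tested. Of the 8 Treg markers themselves, 5 were lower and 3 higher, and their sums overlapped. Among them 1 was called lower (limma adjusted p = 0.00575, all genes 1.31%), and 1 lay below WT without overlap (5.1%).

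**Figure D5:**
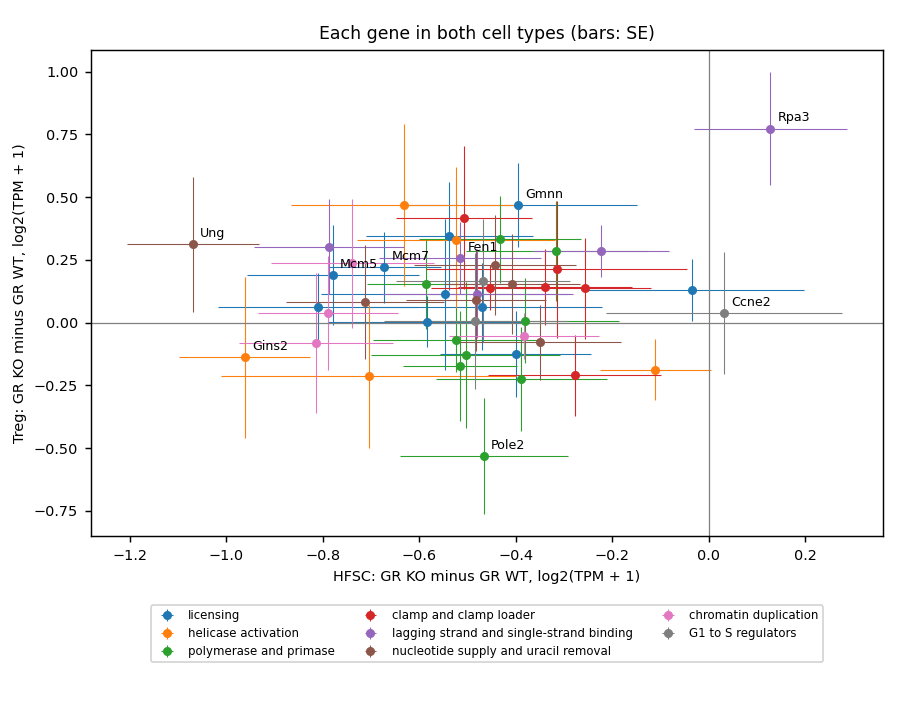
Difference between GR KO and GR WT (log2(TPM + 1), bars are SE) in HFSC (x axis) and in Treg cells (y axis) for the 48 genes tested in both, coloured by role. Most points lie left of 0 and above it, with Ung and Gins2 at the far left and Rpa3 at the upper right.

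Levels in WT libraries, which are descriptive across separately made tables, were higher in HFSC than in Treg cells for most of these genes. All 3 HFSC WT libraries exceeded all 3 Treg WT libraries for 45 of 50 genes, 4 overlapped (Pcna, Orc6, Rpa3 and Ccne2), and Slbp alone was lower in HFSC (62.9 against 82.4 TPM). The median level was 41.0 TPM in HFSC and 10.5 TPM in Treg cells, and the median ratio 4.69. Gins1 and Ccne2 were represented by different transcripts in HFSC and Treg cells, so their levels are not compared like for like. For Gins1 these were NM_027014 (1078 bases) in HFSC and NM_001163476 (637 bases) in Treg cells. Pcna led in both, at 220.5 TPM (range 194 to 245) in HFSC and 203 TPM (195 to 214) in Treg cells. After it, Mcm6 in HFSC (119.6 TPM, 107 to 142) overlapped with its next neighbours in order, Uhrf1, Mcm7 and Mcm5, in their WT ranges. The ratio ranged from 0.764 for Slbp to 33.3 for Mcm10, which was at only 0.390 TPM in Treg WT. It was 27.1 for Ung, 25.8 for Chaf1a and 16.02 for Uhrf1, but 1.196 for Gins4 and 1.71 for Rfc2. Since Treg cells were sorted 24 h and HFSC 4 days after depilation, cell type and time cannot be told apart here.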

How the data were processed

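Libraries were made from the RNA of sorted cells with a TruSeq Stranded mRNA kit, per the labels. Tools named in the submitters' processing notes are FastQC, Trim Galore, STAR and HOMER, with the build mm10. For versions, settings and the use of strand in counting, nothing is given in the sources used here. Reads shared with antisense genes or near-identical copies therefore cannot be told apart. The authors deposited 1 TPM table per cell type, with 1 RefSeq transcript and its length per gene, per the file headers. The prefix of the HFSC columns is not explained, and columns were assigned by genotype and replicate number within their table.

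Multiplying TPM by length gave whole tags within 0.1 for 100% of low values. Of genes with up to 20 tags, 84.2 to 90.9% had an even number, so tags are not independent molecules. The chi-square per degree of freedom between replicates was 2.74 to 16.3, so none was a copy of another.

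For each table, limma 3.58.1 (R 4.3.3) was run on log2(TPM + 1) of genes averaging 1 TPM or more, using a trended prior, two-sided tests and Benjamini-Hochberg adjustment over all genes tested, at 0.05. Differences are GR KO minus GR WT on that scale, which understates the change of low genes. The procedure was tested on simulated data drawn as independent libraries. These lacked the excess of even tags and the shared high and low libraries seen here, so the test does not measure the error of these calls. The members, roles, lists and motif were chosen with earlier results of these data known. Values per library are given for Gins2, Ung, Mcm5 and, per role, up to 3 genes with the smallest p in HFSC and 1 in Treg cells. From each of the 4 further pathway lists the 2 genes with the smallest p are named, and from the mitosis and CDK inhibitor lists the 2 most abundant. Marker lists are given by counts and sums. Fen1, Rpa1, Cdc6 and Mcm10 in Treg cells, and single differences of the other members, were named after their values were seen. Alternatives covered pseudocounts of 0.1 and 5, no filter or a minimum mean of 5 TPM, median ratio scaling, voom on recovered tags, a robust prior, a replicate block and each library left out.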

Additional observations from a re-analysis of the deposited data

Results flagged for a closer look

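Among the 50 genes, 1 library stood far from the other 4 in the Treg GR KO group for 3 genes. Tk1 was at 13.9 TPM in KO replicate 1 and 8.09 to 8.55 TPM in the others (gap 0.9005 of the range on the log2 scale). Chaf1a was at 3.03 TPM in KO replicate 1 and 1.195 to 1.499 TPM in the others (gap 0.786). Ung was at 3.32 TPM in KO replicate 2 and 1.55 to 1.96 TPM in the others (gap 0.716). Over the 50 groups examined, chance sets off about 1 in 20.

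Fen1 had all KO libraries below all WT libraries in HFSC (-0.52) and all KO libraries above all WT libraries in Treg cells (0.26), and this difference between the cell types was not tested.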

How the results depend on the processing

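For HFSC, 22 genes were called in all, 4 lower and 18 higher. This became 2 (0 and 2) with no filter, 48 (10 and 38) above a 5 TPM minimum, 69 (63 higher) with median ratio scaling, 483 (243 and 240) with voom, 51 (9 and 42) with the robust prior and 66 (61 higher) with the replicate block. Without 1 library at a time it was 0 to 5, with 0 to 2 lower and 0 to 5 higher. Of the 50 genes, 2 were called, against 1 with a pseudocount of 0.1 (Ung), 0 with no filter, 15 with voom, 0 with the replicate block (adjusted p = 0.0541 for both Ung and Gins2) and 0 without any 1 library. Their median stayed between -0.58 and -0.38 over all alternatives. Whether libraries of the same number were collected or handled together is not stated. In HFSC the same-number correlation of deviations was -0.042 to 0.062, which cannot settle this. In Treg cells this correlation was 0.170, 0.087 and -0.117 for replicates 1, 2 and 3. There, WT replicate 2 with KO replicate 3, of different numbers, reached 0.177.

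For Treg cells, 175 genes were called, 152 lower and 23 higher: 96 lower above a 5 TPM minimum, 40 higher with voom, and 78 (74 and 4) with the replicate block. Without 1 library at a time it was 84 to 186, with 73 to 165 lower and 11 to 26 higher (84 on leaving out WT replicate 3, and 107 on leaving out WT replicate 1). Members called numbered 0 to 1 there, the 1 being Rpa3 without WT replicate 2.

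Ccne2 in HFSC reversed with voom (-0.075) and without WT replicate 1 (-0.19) or KO replicate 1 (-0.063), over a range of -0.19 to 0.18 without 1 library at a time. Gins2 in Treg cells reversed without WT replicate 1 (0.093) or 3 (0.061), over a range of -0.57 to 0.093. The causes were not tested. Of the 336 values of described genes in HFSC and 158 in Treg cells, none other changed sign. Depth limits the lowest genes: Orc1 and Cdc6 in HFSC and Ung in Treg cells are among those with a mean under 100 tags per library.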
